A study of Mus musculus with 9 samples.

Results

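The 81 genes described here are glycosyltransferases and sulfotransferases of the kind that build mucin glycans. They are the protein-coding entries of the authors' deposited RNA table, which has 17511 entries in all and 14532 that code for protein, whose mouse symbols begin with B3gal, B3gn, B4gal, Galnt, St3gal, St6gal, St8sia, Fut, Gcnt, C1galt or Chst and go on with any lower-case letters and then a digit. The 81 entries carry 80 symbols, because St6galnac2 stands under 2 gene IDs. The choice by symbol also takes in enzymes that act mainly on glycolipids, on proteoglycans or on other protein glycans, so the genes are called glycan enzymes below and not mucin enzymes. RefSeq holds 95 protein-coding genes with such symbols, of which 79 had an entry, and the other 16, among them St6galnac1, are not analysed here.

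The libraries came from mouse large intestinal cells, which were freed from fresh colon with EDTA to enrich the epithelium. The groups were DKO, labelled Cdx1-/-Cdx2f/f vill (+), and Wt, labelled Cdx1-/-Cdx2f/f vill (-), so by the strain tags both groups carried the Cdx1 null and the floxed Cdx2 alleles and only vill differed. RNA-seq and ATAC-seq had 2 libraries per group from mice given tamoxifen for 6 days, and ChIP-seq of the homeobox factor Cdx2 had 1 library with the vill (-) tag and no treatment. The tag vill is not explained in the labels, and no label gives the animals' age or says that libraries came from separate animals. The authors' p-values therefore measure only how far these samples spread, possibly for technical reasons, and expression per library cannot be given for a gene, since nothing used here pairs the transcript IDs of the single libraries with genes.

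Mucins of the gut are coated with sugar chains that start with an N-acetylgalactosamine (GalNAc) placed on serine or threonine by the Galnt enzymes. Core enzymes then add galactose or N-acetylglucosamine, further enzymes extend and branch the chain in the Golgi, and fucose, sialic acid, GalNAc or sulfate cap it. In the colon these chains hold the water of the mucus layer and serve bacteria as food and as attachment sites, and the caps in particular differ along the gut and between species.

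The stretches before the gene starts of 6 of these genes, chosen after the values were seen, are shown as a description. The chromatin results below use wider limits around the starts and spans. They are the RefSeq sequences of GRCm38.p6, 250 bases ending just before the listed start, 5′ to 3′ on the strand of the gene, with capitals for TTTATG or its reverse complement CATAAA, the core of the sequence that Cdx factors are known to bind. B4galnt2, St3gal3 and Chst4 were lower in DKO, and Gcnt2, Fut4 and C1galt1 were higher. The sequence of B4galnt2 is at chr11:95914872-95915121, minus strand, that of St3gal3 at chr4:118134947-118135196, minus strand, and that of Chst4 at chr8:110039335-110039584, minus strand. The sequence of Gcnt2 is at chr13:40859518-40859767, plus strand, that of Fut4 at chr9:14752123-14752372, minus strand, and that of C1galt1 at chr6:7844974-7845223, plus strand.
B4galnt2: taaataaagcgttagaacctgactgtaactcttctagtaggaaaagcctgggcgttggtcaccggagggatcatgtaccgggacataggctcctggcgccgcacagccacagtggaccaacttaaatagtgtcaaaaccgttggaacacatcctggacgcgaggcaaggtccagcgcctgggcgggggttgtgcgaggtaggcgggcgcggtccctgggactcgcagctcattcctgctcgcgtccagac
St3gal3: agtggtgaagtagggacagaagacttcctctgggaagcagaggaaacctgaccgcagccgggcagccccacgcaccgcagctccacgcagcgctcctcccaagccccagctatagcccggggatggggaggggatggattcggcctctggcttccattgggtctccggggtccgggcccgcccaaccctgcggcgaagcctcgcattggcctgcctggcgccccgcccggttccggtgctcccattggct
Chst4: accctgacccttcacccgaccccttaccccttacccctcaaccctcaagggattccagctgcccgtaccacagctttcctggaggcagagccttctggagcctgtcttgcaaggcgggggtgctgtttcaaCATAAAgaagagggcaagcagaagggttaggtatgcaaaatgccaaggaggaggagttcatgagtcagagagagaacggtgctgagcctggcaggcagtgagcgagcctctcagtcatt
Gcnt2: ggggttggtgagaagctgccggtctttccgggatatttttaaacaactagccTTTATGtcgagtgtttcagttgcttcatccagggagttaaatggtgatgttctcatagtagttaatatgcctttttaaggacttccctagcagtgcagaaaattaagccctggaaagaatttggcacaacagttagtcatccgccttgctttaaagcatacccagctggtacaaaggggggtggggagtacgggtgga
Fut4: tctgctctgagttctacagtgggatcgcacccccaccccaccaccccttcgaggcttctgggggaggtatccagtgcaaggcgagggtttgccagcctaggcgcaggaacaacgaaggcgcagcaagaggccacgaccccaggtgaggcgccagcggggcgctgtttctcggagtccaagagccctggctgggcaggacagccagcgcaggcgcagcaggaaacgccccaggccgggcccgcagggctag
C1galt1: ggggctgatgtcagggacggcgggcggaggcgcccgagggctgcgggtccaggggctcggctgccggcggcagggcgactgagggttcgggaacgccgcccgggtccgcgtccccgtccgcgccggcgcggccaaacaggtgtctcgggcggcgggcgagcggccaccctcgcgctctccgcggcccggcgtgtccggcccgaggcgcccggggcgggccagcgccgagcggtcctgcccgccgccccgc
Chst4 and Gcnt2 each hold the 6 letters 1 time, and the other 4 hold neither form. Their GC content was 58.4% in B4galnt2, 68.4% in St3gal3, 56.4% in Chst4, 45.6% in Gcnt2, 67.6% in Fut4 and 82.8% in C1galt1. Of all 78 listed promoters of the glycan enzymes, 5 (6.41%) held either form on this strand or the other, against 6.40% of the 14580 promoters of all protein-coding genes in the table and 10.76% of all 32851 RefSeq promoters. These 5 belong to B3galt5, Chst4, Gcnt1, Gcnt2 and St6gal1, and a match of letters is a description and not a binding site.

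As a group the glycan enzymes were called about as often as other genes. At an adjusted p under 0.05 the authors' deposited table called 14 of the 81 higher and 20 lower in DKO, which is 17.3% and 24.7%, while it called 21.1% of the 14532 protein-coding genes higher and 19.9% lower. The share called in either direction was 42.0% against 40.9%, and the median log2 fold change (DKO over Wt) was -0.06 against -0.01 over all protein-coding genes in the authors' deposited table. Over the 60 glycan enzymes whose mean normalized count reached 50, 13 were called higher and 13 lower by the authors' deposited table (21.7% each), against 25.3% and 19.5% of protein-coding genes above the same mean. The 21 glycan enzymes under that mean had 1 higher (4.76%) and 7 lower calls (33.3%), beside 5.39% and 21.3% of protein-coding genes with so low a mean. At an adjusted p under 0.01 the authors' deposited table called 13 of the 81 higher and 13 lower (16% each), beside 15.5% and 14.3% of protein-coding genes. Within the group, however, single enzymes moved by very different amounts, from -6.03 for St3gal5 to 2.50 for Fut4 on the log2 scale in the authors' deposited table.

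**Figure D1:**
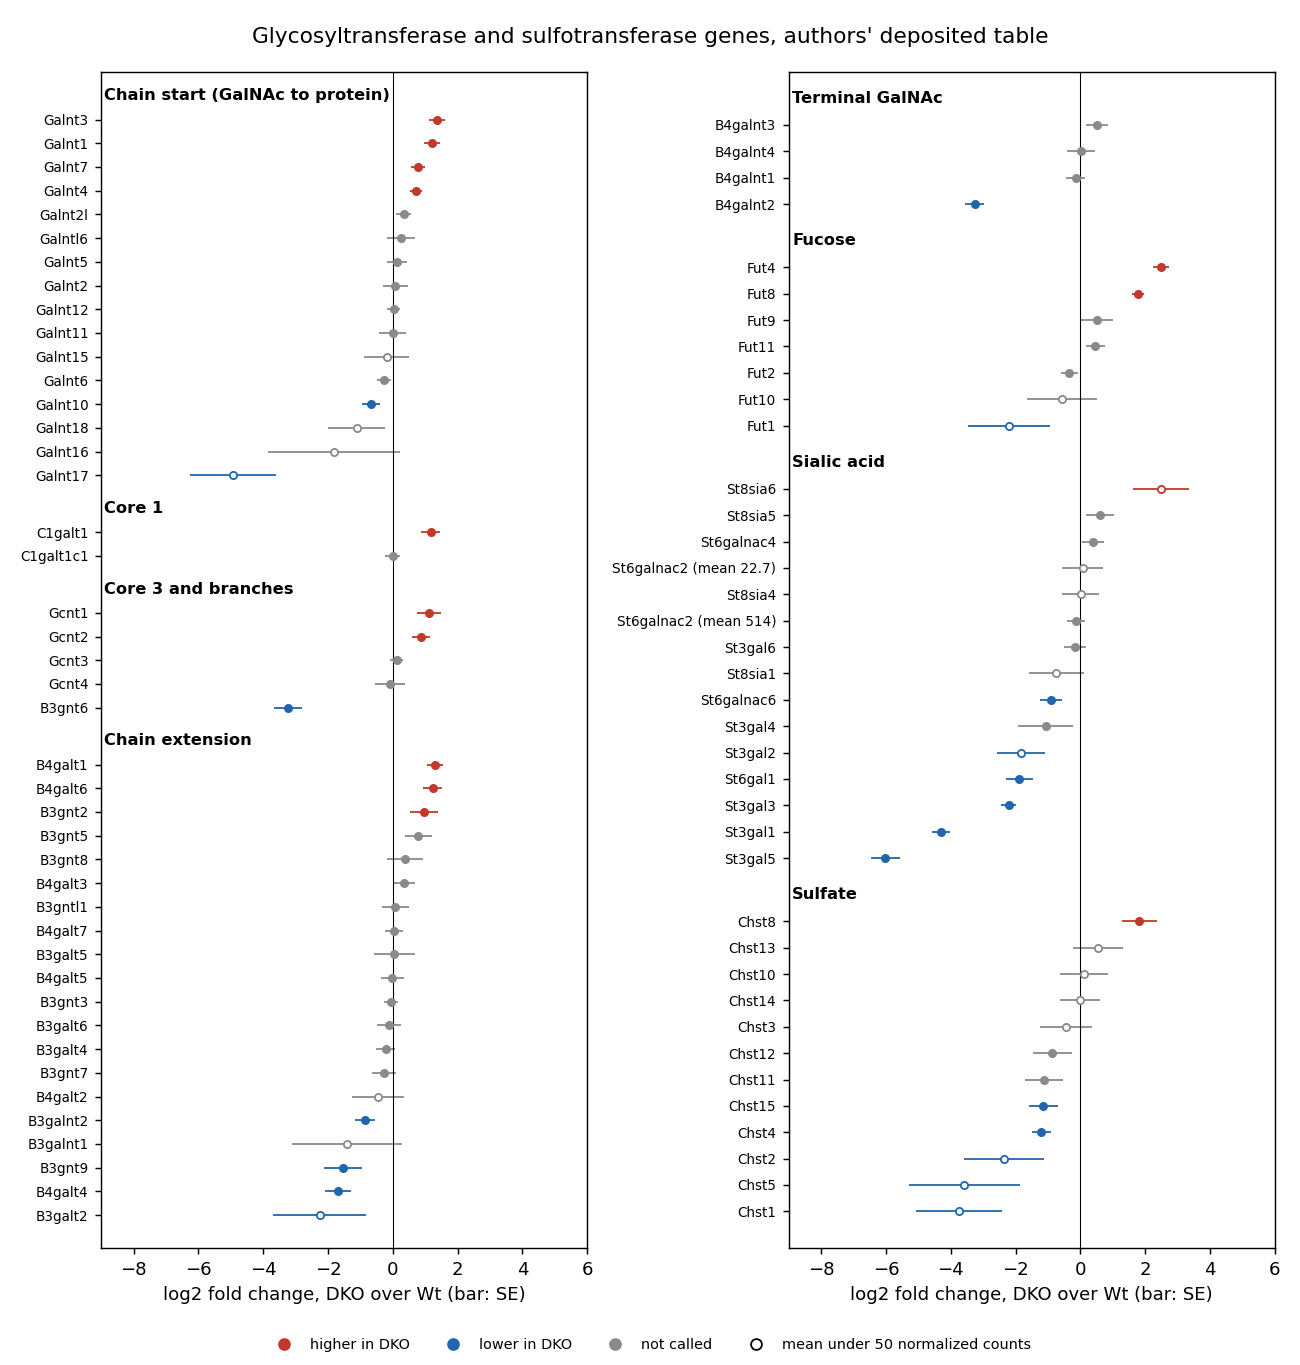
Log2 fold change, DKO over Wt, of the 81 glycan enzymes in the authors' deposited table (x axis), 1 row per gene grouped by the step the enzyme carries out. Bars are standard errors, colours give the call at an adjusted p under 0.05, and open points have a mean under 50 normalized counts. The points farthest to the left are St3gal5, Galnt17 and St3gal1, and those farthest to the right are Fut4, St8sia6 and Chst8.

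Facts of the whole series bear on every result below. Cdx2, the gene named in the knockout label, stood at -0.27 (SE 0.21, adjusted p = 0.301) with a mean normalized count of 9263 by the authors' deposited table, so it was not called lower in DKO. Cdx1 had a mean normalized count of 2595 although every strain tag reads Cdx1-/-, and stood at -1.06 (SE 0.23, adjusted p = 2.08e-05) by the authors' deposited table. The alleles' deleted parts are not given in the labels, and a count over a whole gene does not show whether a part of it is missing, so these values do not check the labels. DKO and Wt stand throughout for the libraries labelled so, and each direction below rests on those labels. Estimated reads per RNA library came to 21197446 and 20069555 in DKO, against 16403301 and 25494309 in Wt. Markers of other cell types moved with the group labels: all 18 markers of stroma, muscle and endothelium were lower by the authors' deposited table (median log2 fold change -5.20, range -9.06 to -1.47), as were 6 of 9 measured B and plasma cell markers. Of 12 goblet cell markers 11 were lower and of 7 measured gastric epithelial markers 6 were higher by the authors' deposited table. Of these 7 gastric markers 3 had a mean under 50 normalized counts, and of the other 4, 3 were higher. Of 10 general epithelial markers, all measured, 2 were higher and 3 lower. Of 10 T cell markers 2 were higher, and of 12 myeloid markers 4 were higher and 3 lower, again by the authors' deposited table. Over all protein-coding genes that table called 21.1% higher and 19.9% lower. That table gives 1 mean over all libraries, so the summed level of these markers in each group cannot be stated, and their part in the results below was not tested. In bulk samples, fewer cells of a type and less RNA per cell cannot be told apart.

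Of 16 measured Galnt genes that start the chain, 4 were higher and 2 lower by the authors' deposited table, beside 21.1% and 19.9% of protein-coding genes. Their median log2 fold change was 0.06, with a range of -4.94 to 1.37. Galnt3, which in humans is known for glycosylating the phosphate hormone FGF23, stood at 1.37 (SE 0.25, adjusted p = 1.37e-07) and Galnt1, a broadly expressed isoform, at 1.22 (SE 0.25, adjusted p = 2.97e-06) by the authors' deposited table. Galnt7, which adds GalNAc beside sugars that are already in place, and Galnt4 rose by less than 2-fold, with 0.79 (SE 0.22) and 0.72 (SE 0.19) according to the authors' deposited table. Galnt4 overlaps the gene Poc1b in the RefSeq spans, so reads of the pair may have been split between them. Galnt10, another isoform of the follow-up kind, fell by 0.67 (SE 0.27, adjusted p = 0.0293), and Galnt17 by 4.94 (SE 1.32) with a low mean normalized count of 22.1, by the authors' deposited table. Galnt12, Galnt6, Galnt5, Galnt2 and Galnt11 lay between -0.26 and 0.13 in the authors' deposited table, and none of them passed the threshold. Galnt2 and the entry Galnt2l may share reads, so both values (0.08 and 0.34, neither called) are uncertain in the authors' deposited table. Galnt6 overlaps its antisense gene Galnt6os, and whether counting used strand is not given. The remaining Galnt15, Galnt16, Galnt18 and Galntl6 ranged from -1.82 to 0.25 and were not called in the authors' deposited table.

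Of the enzymes that make core 1 or core 3, one was higher and one lower. C1galt1 (chromosome 6, 7845224 to 7872042, GRCm38.p6), which makes core 1 by adding galactose, stood at 1.18 (SE 0.29, adjusted p = 0.000159) by the authors' deposited table, 2.26-fold higher in DKO. Its dedicated chaperone C1galt1c1, also called Cosmc, stood at -0.00 (SE 0.23, adjusted p = 0.990) there. B3gnt6 (chromosome 7, 98192415 to 98199475), which makes core 3 and is characteristic of colon mucus, fell by 3.23 (SE 0.44, adjusted p = 6.69e-13) by the authors' deposited table, 9.37-fold lower in DKO. The branching enzymes were higher or near 0: Gcnt1, which turns core 1 into core 2, stood at 1.13 (SE 0.37, adjusted p = 0.00413) by the authors' deposited table. Gcnt2, which makes the I branch on poly-lactosamine, stood at 0.88 (SE 0.28, adjusted p = 0.00449) there. Gcnt3, the mucin-type branching enzyme of core 2 and core 4, stood at 0.12 (SE 0.21, adjusted p = 0.685) at a mean of 7028 normalized counts according to the authors' deposited table. Gcnt4 was at -0.08 (SE 0.47) and was not called in the authors' deposited table.

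**Figure D2:**
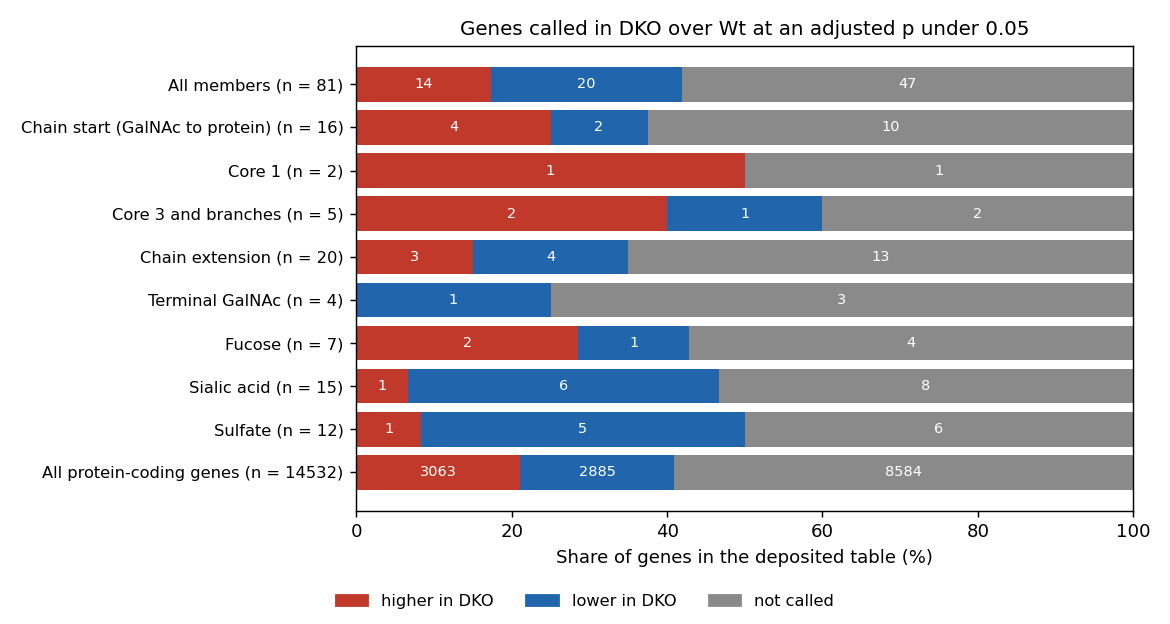
Share of genes (x axis, percent) called higher, lower or neither in DKO at an adjusted p under 0.05 in the authors' deposited table, for all 81 glycan enzymes, for each step, and for all protein-coding genes, with the number of genes printed in each bar. Sialic acid and sulfate enzymes were lower in 6 of 15 and 5 of 12, and enzymes that start the chain in 2 of 16, beside 19.9% of protein-coding genes. Of the 12 sulfate enzymes 7 had a mean under 50 normalized counts.

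Chain extension was mixed. Of 20 enzymes 3 were higher and 4 lower by the authors' deposited table, with a median log2 fold change of -0.04. Protein-coding genes as a whole were higher in 21.1% and lower in 19.9%. B4galt1, which adds galactose to N-acetylglucosamine on many glycans, stood at 1.299 (SE 0.25, adjusted p = 6.65e-07) and B4galt6, a lactosylceramide synthase, at 1.23 (SE 0.30, adjusted p = 9.71e-05) by the authors' deposited table. B3gnt2, which makes poly-lactosamine, stood at 0.97 (SE 0.43, adjusted p = 0.0328) there. On the lower side the authors' deposited table held B4galt4 at -1.70 (SE 0.39, adjusted p = 3.15e-05), B3gnt9 at -1.53 (SE 0.60, adjusted p = 0.00902), B3galnt2, which acts on dystroglycan, at -0.85 (SE 0.31, adjusted p = 0.0136), and B3galt2 at -2.25 (SE 1.44) with a mean of 13.7 normalized counts. Enzymes with high counts among the others did not pass. B3gnt3, which extends core 1, was at -0.06 (SE 0.21), B3gnt7 at -0.27 (SE 0.36) and B3galt5, which makes type 1 chains, at 0.04 (SE 0.63), at means of 6774, 5422 and 4495 normalized counts according to the authors' deposited table. B4galt7 and B3galt6, which build the linker of proteoglycans, were at 0.05 (SE 0.27) and -0.11 (SE 0.37) there. The remaining B3galnt1, B3galt4, B3gnt5, B3gnt8, B3gntl1, B4galt2, B4galt3 and B4galt5 ranged from -1.41 to 0.79 and were not called in the authors' deposited table.

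Among the caps, GalNAc and fucose enzymes each had 1 or a few members far from the rest. B4galnt2 (chromosome 11, 95863559 to 95914960), which adds the terminal GalNAc of the Sda antigen in the mouse colon, fell by 3.26 (SE 0.29, adjusted p = 9.13e-28) by the authors' deposited table, 9.58-fold lower in DKO. The other 3 terminal GalNAc enzymes did not pass: in the authors' deposited table B4galnt1, which makes the ganglioside GM2, was at -0.15 (SE 0.29), B4galnt3 at 0.51 (SE 0.35) and B4galnt4 at 0.03 (SE 0.44). Fut4 (chromosome 9, 14748459 to 14752122), which makes Lewis x type structures, stood at 2.50 (SE 0.25, adjusted p = 2.28e-22) by the authors' deposited table, 5.64-fold higher in DKO. Fut8 (chromosome 12, 77237430 to 77475998), which adds the core fucose of N-linked glycans and not of mucin chains, stood at 1.78 (SE 0.19, adjusted p = 6.63e-20) there. Fut2, the enzyme behind the H antigen in secretions, was at -0.34 (SE 0.26, adjusted p = 0.293) at a mean of 3096 normalized counts, and its relative Fut1 was at -2.21 (SE 1.27, adjusted p = 0.0217) at a mean of 18.5, in the authors' deposited table. Fut9 was at 0.51 (SE 0.50), Fut11 at 0.46 (SE 0.29) and Fut10 at -0.57 (SE 1.08), none called in the authors' deposited table.

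Sialyltransferases held the largest fall of the whole group. By the calls of the authors' deposited table, 6 of 15 measured were lower and 1 was higher, with a median log2 fold change of -0.75, beside 19.9% lower and 21.1% higher over all protein-coding genes. In the St3gal branch, which adds sialic acid to galactose, 4 of 6 were lower and 0 higher by the authors' deposited table; this branch was singled out after its values were seen. St3gal5 (chromosome 6, 72097552 to 72154571), which makes the ganglioside GM3, fell by 6.03 (SE 0.45, adjusted p = 9.57e-40), 65.3-fold lower in DKO in the authors' deposited table. St3gal1 (chromosome 15, 67102875 to 67176946), which caps core 1, fell by 4.31 (SE 0.28, adjusted p = 2.52e-53), 19.9-fold lower in DKO in the authors' deposited table. St3gal3 (chromosome 4, 117932152 to 118134972), which caps chains that end in galactose on N-acetylglucosamine, fell by 2.21 (SE 0.23, adjusted p = 1.10e-21) by the authors' deposited table. St3gal2 fell by 1.84 (SE 0.73) at a mean of 33.8 normalized counts there. The other members of the branch did not pass in the authors' deposited table: St3gal4 was at -1.06 (SE 0.85, adjusted p = 0.132) at a mean of 4826 normalized counts, and St3gal6 at -0.17 (SE 0.34, adjusted p = 0.730). St6gal1, which caps N-linked glycans, fell by 1.88 (SE 0.41, adjusted p = 9.29e-06), and St6galnac6, known for acting on gangliosides, fell by 0.91 (SE 0.35, adjusted p = 0.0170) at a mean of 9283 normalized counts according to the authors' deposited table. St8sia6 was the higher one, at 2.49 (SE 0.86, adjusted p = 0.00200) and a mean of 27.6 normalized counts according to the authors' deposited table. The St6galnac2 entries, at -0.14 and 0.08, and St6galnac4, at 0.40, were not called there. The remaining St8sia1, St8sia4 and St8sia5 ranged from -0.75 to 0.61 and were not called in the authors' deposited table. Of the 34 glycan enzymes called in either direction, 18 have a span that overlaps another RefSeq gene, as have 37 of all 81. The spans carry no exons here, so whether any reads could belong to either gene is not known. The 18 are Galnt4, St3gal1, St3gal2, St3gal3, St3gal5, St6gal1, St6galnac6, Galnt7, Galnt10, Galnt17, Gcnt2, B3galnt2, B3galt2, B3gnt9, B4galt6, Fut8, Chst8 and Chst15.

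Among 12 sulfotransferases the authors' deposited table held 5 lower and 1 higher, with a median log2 fold change of -0.99, but 7 of the 12 had a mean under 50 normalized counts. By the authors' deposited table, protein-coding genes were lower in 19.9% and higher in 21.1%, and those with a mean under 50 in 21.3% and 5.39%. Chst4 (chromosome 8, 110029075 to 110039401), which puts sulfate on N-acetylglucosamine, fell by 1.21 (SE 0.29, adjusted p = 0.000101) at a mean of 1106 normalized counts according to the authors' deposited table. Chst15, which acts on chondroitin sulfate, fell by 1.14 (SE 0.46, adjusted p = 0.0172) there. Chst5 and Chst2, which share the activity of Chst4, stood at -3.58 (SE 1.72) and -2.36 (SE 1.23), and Chst1 stood at -3.74 (SE 1.32), all called lower with mean normalized counts of 13.3 to 22.3, by the authors' deposited table. Their SEs were wide, so the sizes are loosely set. Chst11, which acts on chondroitin, lay just outside the threshold at -1.12 (SE 0.58, adjusted p = 0.0518), and Chst3, Chst10, Chst12, Chst13 and Chst14 ranged from -0.86 to 0.54 without a call in the authors' deposited table. Chst8, known for the sulfate on pituitary hormones, was the higher one at 1.82 (SE 0.53, adjusted p = 0.000739) by the authors' deposited table.

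Genes outside this group that feed, trim or carry the same chains were also called in both directions. The counts below stand beside 21.1% higher and 19.9% lower among protein-coding genes in the authors' deposited table. The set for sugar donor supply and transport lay under both shares. No difference from these shares was tested. Of 40 measured genes for sugar donor supply and transport 6 were higher and 6 lower by the authors' deposited table, with a median log2 fold change of -0.15. Papss2, which makes the sulfate donor, fell by 2.23 (SE 0.34), and Gne, the first enzyme of sialic acid synthesis, fell by 0.98 (SE 0.21) according to the authors' deposited table. The sulfate carrier Slc26a2 fell by 1.01 (SE 0.37) there. Slc35a3, the Golgi carrier of the N-acetylglucosamine donor, stood at 1.19 (SE 0.35) and Pgm3, an enzyme that makes the same donor, at 1.18 (SE 0.22) according to the authors' deposited table. Cmas, which activates sialic acid, was at 0.12 (SE 0.23) and was not called there. Of 15 other enzymes of these glycans, 6 were lower and 1 higher by the authors' deposited table. They included A4gnt, which caps chains of gastric gland mucins with N-acetylglucosamine, at -2.04 (SE 0.42), while of the gastric markers Tff1 stood at 10.41 (SE 0.86) and Tff2, a product of the same gland cells as A4gnt, at -0.21 (SE 0.59, not called) by the authors' deposited table. Of 10 measured mucins and mucus proteins, 8 were lower and 1 higher by the authors' deposited table, with Muc2, the main carrier of these chains in the colon, at -4.95 (SE 0.20), and Muc1, the higher one, at 2.35 (SE 0.46).

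Chromatin was compared through the ATAC peak lists, which mark open DNA and were called by the authors in each library. A gene start was taken as open in a library if a peak lay within 1000 bp of a start that RefSeq lists, which 60 of the 79 placed glycan enzymes have. Each gene counted once. A gene with several listed starts was open if any of them had a peak, not necessarily the same start in each library. DKO libraries had 40101 and 23961 listed peaks, against 48163 and 53943 for Wt. Starts of protein-coding genes in general were open in 29.1% and 45.0% of 11470 genes in the DKO libraries, against 81.6% and 83.7% in Wt. Among the glycan enzymes 20% and 43.3% were open in the DKO libraries, against 76.7% and 88.3% in Wt. A start is called lost where every Wt library and no DKO library has a peak, and gained the other way round. By that measure 19 of the 60 starts (31.7%) were lost and 0 gained, beside 32.8% and 0.192% of protein-coding genes, so the share lost was near the background. Without DKO replicate 2, 35 of the 60 (58.3%) were lost, beside 52.7% of protein-coding genes. An exact two-sided permutation of the labels of 2 libraries against 2 cannot give a p under 0.33, and no test of the peak lists was made. A loss seen in so many genes moves with the DKO libraries as a whole, and the part of library quality in it was not tested.

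Among all 60 enzymes with a listed start, 8 starts (13.3%) were open in every library, beside 23.8% of protein-coding genes. Open in all 4 were 6 of 11 higher genes (54.5%), 1 of 15 lower genes (6.67%) and 1 of 34 genes not called (2.94%), and the same shares over all protein-coding genes were 36.7%, 16.0% and 21.7%. The difference between the 3 classes was not tested. These counts rest on DKO replicate 1. Without it 24 of the 60 starts (40%) were open in all 3 libraries left, beside 43.6% of protein-coding genes. They were 9 of 11 higher (81.8%), 4 of 15 lower (26.7%) and 11 of 34 uncalled enzymes (32.4%), beside 59.4%, 33.4% and 41.4% of protein-coding genes. With peaks of -log10 q of at least 5, 2 starts (3.33%) were open in all 4 libraries, beside 2.45% of protein-coding genes. Both were of higher enzymes. The 6 were Fut4, Fut8, Galnt3, Galnt7, B4galt1 and C1galt1, the lower one was Chst15 and the one not called was St3gal6. At Fut4 the fold enrichment that the authors' caller gave to the highest peak was 3.35 and 4.17 in DKO, against 6.58 and 5.95 in Wt. At C1galt1 it was 5.00 and 4.57 in DKO, against 8.07 and 7.51 in Wt. At Galnt3 it was 5.97 and 5.25 in DKO, against 11.6 and 9.36 in Wt. These are the authors' values for each list, and they are given to show that a peak was called and not by how much openness changed.

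**Figure D3:**
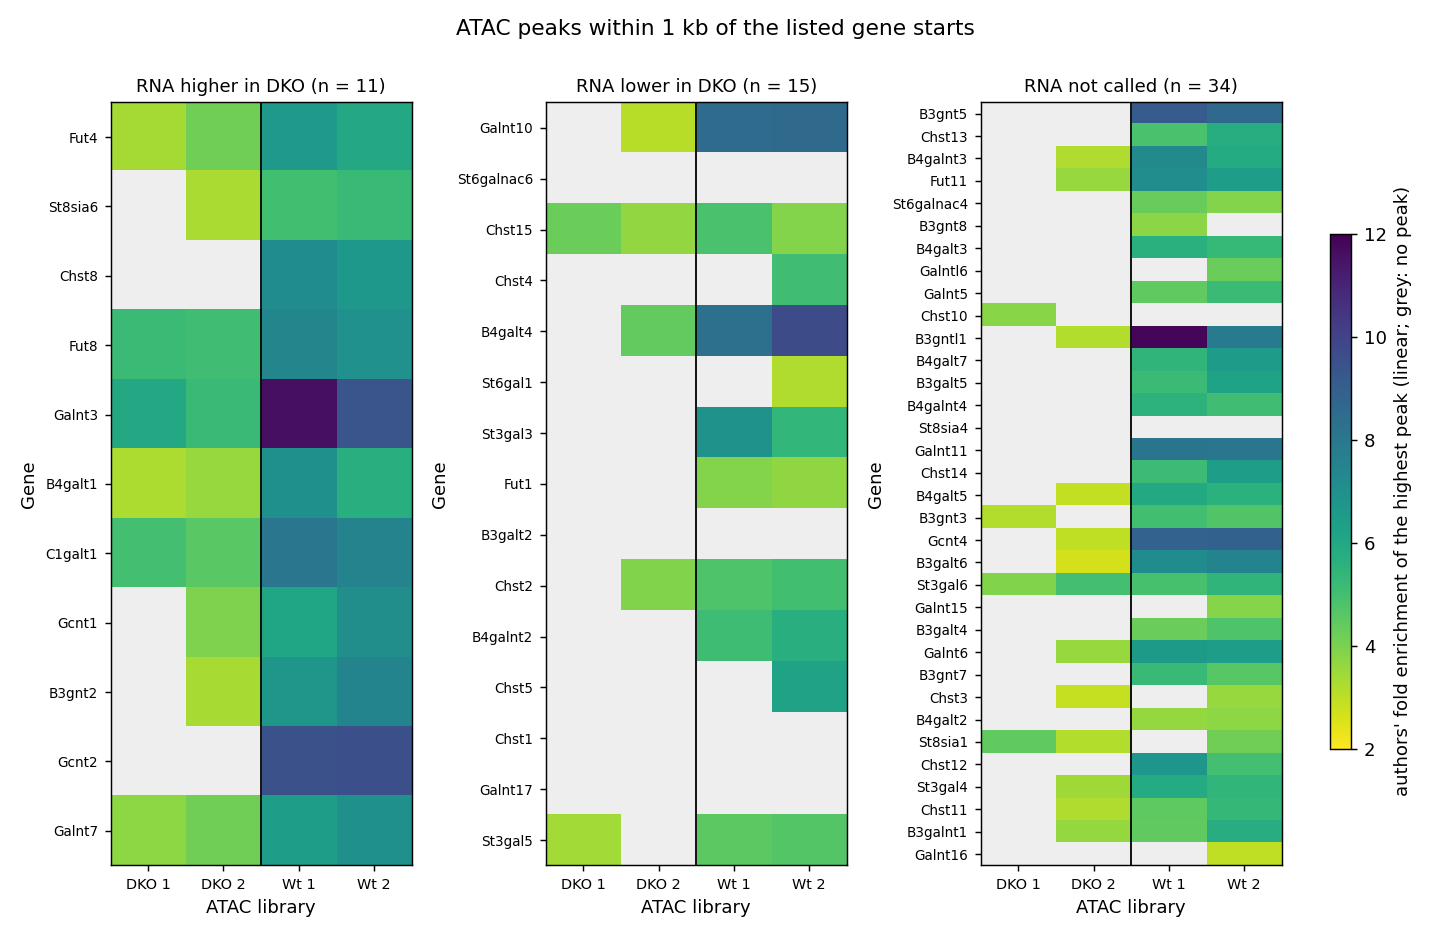
ATAC peaks within 1 kb of the gene starts of the 60 glycan enzymes with a listed start, in the DKO and Wt libraries (columns), split by the RNA call (panels) and sorted by log2 fold change within each panel. Colour is the authors' fold enrichment of the highest peak and grey marks no peak. Coloured in all 4 columns are 6 of 11 genes with higher RNA, 1 of 15 with lower RNA and 1 of 34 not called. The same shares over all protein-coding genes were 36.7%, 16% and 21.7%.

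Of the lower enzymes, B4galnt2, St3gal3 and Fut1 had lost starts, which is 3 of 15 (20%, beside 36.1% of lower protein-coding genes). The start of B4galnt2 had no peak in either DKO library, against peaks of 5.10 and 5.73 fold enrichment in Wt. No ATAC peak at all was listed within 10 kb of the B4galnt2 span in DKO, while each Wt list held 4. The start of St3gal3 likewise had no peak in DKO, against 6.85 and 5.38 in Wt. St3gal5, which had the largest fall in RNA, had a peak of 3.39 in DKO replicate 1 and had none in DKO replicate 2, against 4.51 and 4.67 in Wt. St3gal1 and B3gnt6 have no listed start, and within 1 kb of either end of the span St3gal1 had no peak in DKO replicate 1 and one of 2.90 in replicate 2, against 7.93 and 7.72 in Wt, whereas B3gnt6 had none in any library. Starts were also lost at genes whose RNA was higher. The starts of Gcnt2 and Chst8 had no peak in DKO, against 9.52 and 9.55 for Gcnt2 and 7.14 and 6.65 for Chst8 in Wt. These are 2 of 11 higher enzymes (18.2%), beside 24.9% of higher protein-coding genes. Another 14 of the 34 enzymes not called had lost starts (41.2%, beside 34.6% of protein-coding genes not called), among them B3gnt7, B3galt5 and Galnt11. Without DKO replicate 2 the lost starts numbered 5 of 11 higher, 6 of 15 lower and 24 of 34 uncalled enzymes (45.5%, 40% and 70.6%). Protein-coding genes stood at 47.5%, 53.6% and 54.2% in that setting. Without Wt replicate 1 the lost starts were 2, 6 and 17 (18.2%, 40% and 50%), beside 26.1%, 40.4% and 36.9% of protein-coding genes.

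Cdx2 peaks lay within 10 kb of 18 of the 79 placed glycan enzymes (22.8%), beside 19.1% of 14363 placed protein-coding genes, so they were about as common as elsewhere. Within 50 kb the counts were 36 of 79 (45.6%), beside 36.7%. The 1 ChIP library has no replicate, was not treated with tamoxifen and carries the strain tag of Wt. By RNA call, Cdx2 peaks lay within 10 kb of 6 of 14 higher (42.9%), 6 of 20 lower (30.0%) and 6 of 45 enzymes not called (13.3%). The same shares of protein-coding genes were 18.4%, 23.2% and 17.9%. Longer spans leave more room for a peak, span length was not taken into account, and the difference between the classes was not tested. The 18 genes had 23 peaks, of which 7 (30.4%) overlapped an ATAC peak in both Wt and no DKO library, 13 (56.5%) overlapped none in any library and 0 overlapped one in all 4. Over all 5100 Cdx2 peaks on the assembled chromosomes the shares were 30.7%, 54.2% and 1.4%.

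The peaks near enzymes with lower RNA included 3 inside the St3gal3 span, 0.675, 2.49 and 6.90 kb downstream of its start, with fold enrichments of 4.42, 6.18 and 5.40. Only the farthest of these 3 (chromosome 4, 118127711 to 118128042) overlapped ATAC peaks, with none in DKO, against 4.36 and 4.90 in Wt. B4galnt2 had a Cdx2 peak 7.23 kb upstream of its start (fold enrichment 5.81) that overlapped no ATAC peak, and one 4.704 kb beyond its far end (chromosome 11, 95858614 to 95858855, fold enrichment 4.47). The second of these overlapped no ATAC peak in DKO, against peaks of 6.94 and 7.54 in Wt. Chst4 had a Cdx2 peak 5.89 kb beyond its far end (chromosome 8, 110022906 to 110023184, fold enrichment 6.49), with no ATAC peak in DKO, against 4.59 and 3.95 in Wt. St3gal1 had a weak one 4.53 kb from its span (fold enrichment 3.77), and St3gal5 and B3gnt6 had none within 10 kb.

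**Figure D4:**
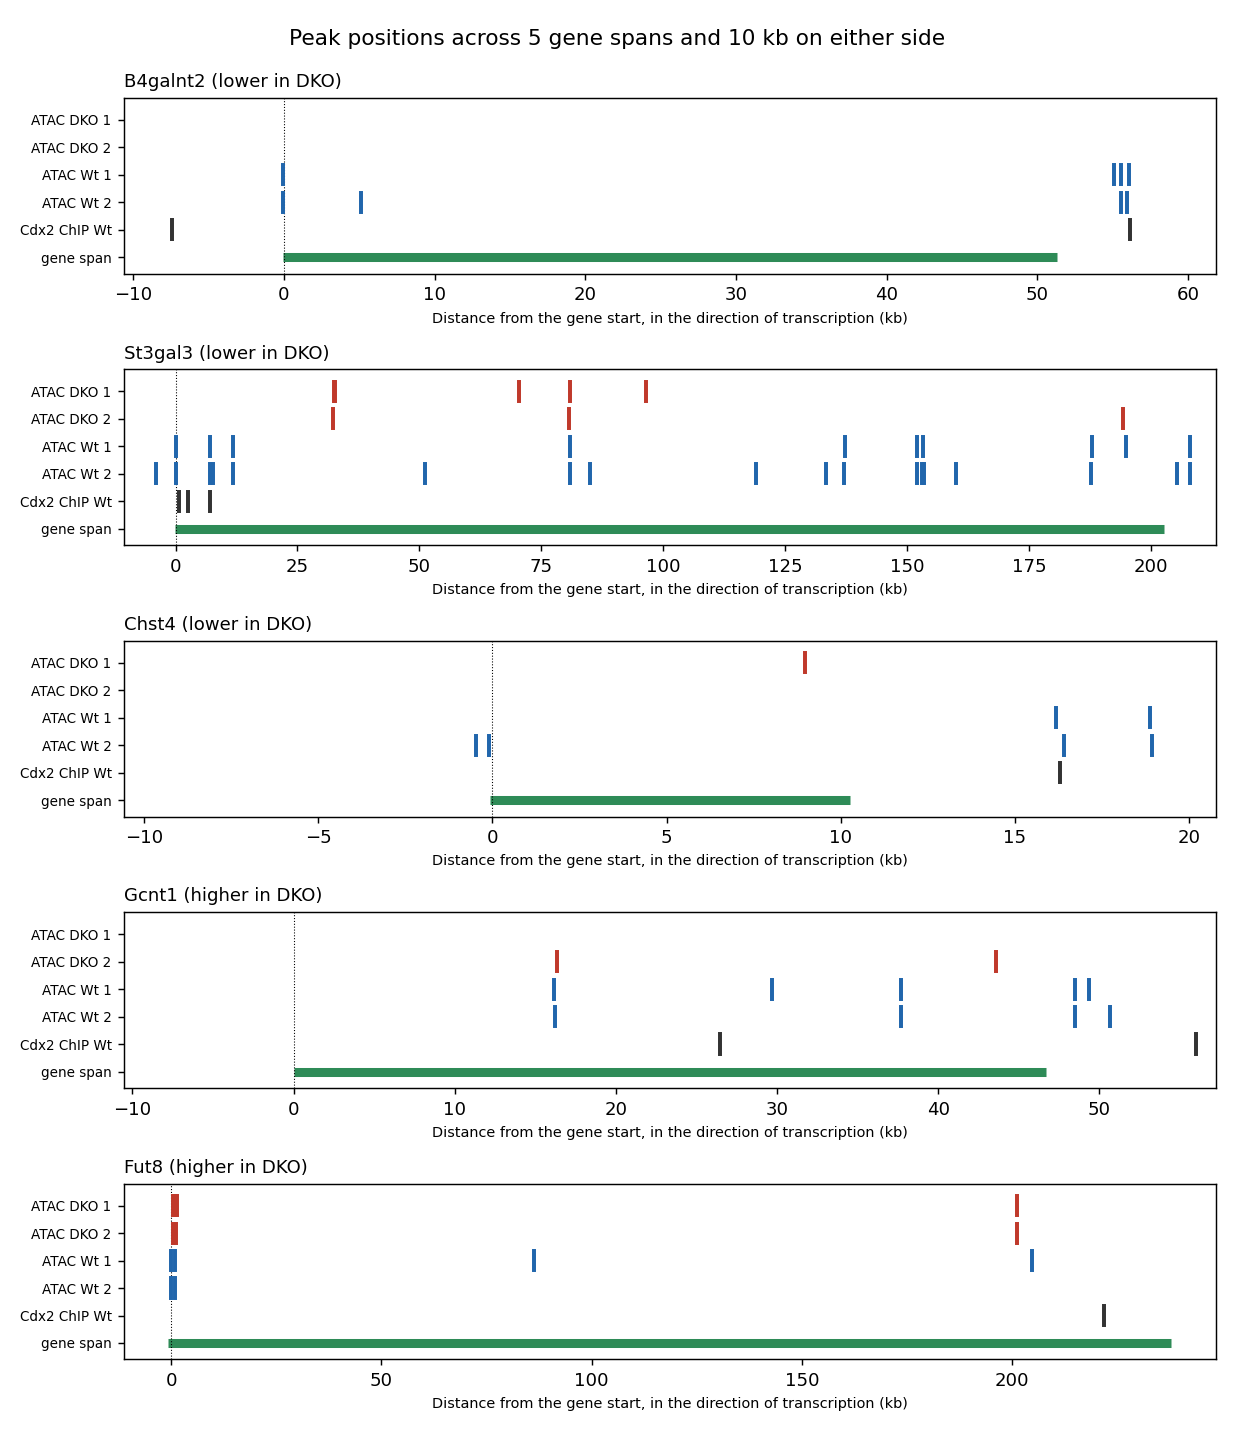
Positions of ATAC peaks in each DKO and Wt library and of Cdx2 peaks (rows) along 5 glycan enzyme genes, in kb from the outermost listed start, with the gene span in green. Each tick is the middle of 1 peak. The genes are those with a mean of 50 or more, a call of at least 2-fold, a listed start and a Cdx2 peak within 10 kb. The B4galnt2 panel has no DKO tick, against 4 in each Wt row.

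Peaks also lay near enzymes whose RNA was higher or was not called. Gcnt2 is the one glycan enzyme with a listed start inside a Cdx2 peak (chromosome 13, 40859748 to 40860001, fold enrichment 7.41). The letters TTTATG in the sequence above lie outside this peak, with 172 bases between them. The start had no ATAC peak in DKO, against 9.52 and 9.55 in Wt, while Gcnt2 RNA was higher. Gcnt3 had a Cdx2 peak of 5.86 across 1 end of its span and no ATAC peak within 10 kb in DKO, against 4 and 5 in Wt, yet its RNA was not called. Galnt7 had 2 Cdx2 peaks inside its span (fold enrichments 6.73 and 5.70), 50.6 and 64.1 kb from its listed start. Gcnt1 had 1 inside (5.53) and 1 beyond its far end (5.79), 6.765 and 22.5 kb from the nearest listed start. Fut8 had 1 inside (5.87), 49.7 kb from the nearest listed start. Galnt4, which was higher, had 1 that was 4.64 kb from its span (4.29), with no ATAC peak in DKO, against 3.47 and 4.16 in Wt. Galnt10, which was lower, had 1 inside (7.68), 134 kb from its listed start, that overlapped no ATAC peak in any library. B3galt6 and B3gntl1, not called, had Cdx2 peaks of 4.50 and 4.85 that overlapped no ATAC peak in DKO. In Wt the ATAC peaks there were 7.15 and 7.48 for B3galt6, and 5.12 and 5.59 for B3gntl1.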

How the data were processed

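Libraries were grouped by their titles. The submitters' processing notes name the tools fastp, Salmon 1.3.0, DESeq2, Bowtie2, BWA and MACS2 and the builds mm10 and GRCm38, without settings. The RNA files hold estimated counts per transcript and TPM values, both made by the authors with Salmon, per the file headers, and were used here only for depth and for the direction of the table. The gene table holds mean normalized counts, a signal scaled between libraries by the authors, with log2 fold changes, SEs, p-values and adjusted p-values that the authors computed, per the file headers. Fold over SE returned the deposited p within 0.01 in log10 for 14 of the 81 genes, so p cannot be rebuilt from fold and SE for most. For the others, among them Fut1 and B3galt2, a printed fold and SE do not by themselves give the adjusted p of the call. For each peak the authors' caller gave a fold enrichment ratio, a -log10 p, a -log10 q and a score, per the file format, and peaks were called per library.

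No edgeR fit per gene was made, although one was planned, since no source pairs transcript IDs with genes. To check the sign of the deposited folds, features were taken with a mean of 50000 or more whose log2 change was 4 or more up or down: DKO had 0 higher and 4 lower among transcripts, and 0 higher and 3 lower among genes. Genes were placed by their Entrez IDs on RefSeq GRCm38.p6, the assembly of mm10, whose spans carry no exons here. Distances and overlaps were computed in Python 3.11.15 with pandas 2.3.3 and numpy 2.4.6 and were checked on simulated intervals. Named genes are those called at least 2-fold with a mean of at least 50, the highest mean of each step, those of the top 20 by mean with a Cdx2 peak within 10 kb, and 10 fixed by name. Further genes are named to account for the group and were chosen after their values were seen, as were the 6 sequences shown and the letters searched in them. The members and lists were chosen with earlier results of these data known. Mean counts are not divided by gene length, so levels are not compared between genes.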

Additional observations from a re-analysis of the deposited data

How the results depend on the processing

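With genes under a mean of 50 left out and p readjusted by Benjamini-Hochberg, 0 of the 28 named genes above that mean changed call, and of all 60 Chst11 alone did, from not called to lower. The count of lower enzymes was 13 at an adjusted p under 0.01 and that of higher ones was 13. Leaving out 1 ATAC library gave 20 to 35 lost starts, 0 to 1 gained and 21 to 36 of either kind, with 35 lost and 1 gained without DKO replicate 2 and 20 lost and 1 gained without Wt replicate 2. Cdx2 peaks lay within 50000 bp of 36 enzymes (45.6%, beside 36.7% of protein-coding genes). Starts open in every library used numbered 2 with peaks of -log10 q of at least 5 and 8 to 24 with 1 ATAC library left out, the 24 without DKO replicate 1. Counts over all members stayed within 1.5 times the reported ones otherwise. They included 28 lost starts at that q (46.7%, beside 53.3% of protein-coding genes) and 24 by either span end (30.4%, beside 30.3%). Counts split by RNA call are small and moved more. With peaks of -log10 q of at least 5, lost starts were 6 of 11 higher, 3 of 15 lower and 19 of 34 uncalled enzymes. These are 54.5%, 20% and 55.9%, beside 53.2%, 48.3% and 55% of protein-coding genes. Within 2000 bp Cdx2 peaks lay near 5 of 14 higher, 3 of 20 lower and 5 of 45 uncalled enzymes. These are 35.7%, 15% and 11.1%, beside 14.4%, 17.2% and 13.3% of protein-coding genes. The use of either span end, and the alternatives for open starts and for the split by call, were added after seeing the data. No paired analysis was possible because the RNA result is the authors' deposited fit, and the peak counts come from no test; the planned gene-level alternatives were not run for want of a pairing of transcripts with genes. Low counts limit 21 of the 81 genes, and no depth is known behind a peak.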

Other observations

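Around the 79 placed glycan enzymes, within the spans and 10 kb on either side, the 4 ATAC lists merged into 505 regions, counted per gene, of which 19 (3.76%) had peaks in both DKO and no Wt library, 162 (32.1%) in both Wt and no DKO library and 13 (2.57%) in all 4. Over all placed protein-coding genes these shares were 3.36%, 31.1% and 5.42% of 77246 regions. The rest, 311, were listed in part of a group. St8sia1, which makes the ganglioside GD3, had 13 and 4 peaks in these limits in DKO, against 1 and 4 in Wt, and its RNA was at -0.75 (SE 0.85, adjusted p = 0.275) at a mean of 24.6 normalized counts according to the authors' deposited table. The strongest Cdx2 peak near any of these genes, with a fold enrichment of 13.9, lay inside the St8sia6 span (chromosome 2, 13682472 to 13682827) and overlapped no ATAC peak in any library. It was 111 kb from the listed start of St8sia6.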
